A study of Mus musculus with 4 samples.

Results

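The early mevalonate pathway enzymes are the 9 enzymes taken here, by gene symbol, for the steps from acetoacetyl-CoA to squalene: *Acat2*, *Hmgcs1*, *Mvk*, *Pmvk*, *Mvd*, *Idi1*, *Fdps*, *Ggps1* and *Fdft1*. Each symbol matched 1 Ensembl identifier among the 39179 genes listed, and all 9 passed the filter on low counts that left 11483 genes for testing. They were taken by symbol, and earlier results of these data were known when they were chosen. RNA-seq was available for 4 libraries of B16F1, a mouse melanoma cell line. Of these, 2 were from parental B16F1 control cells, which are usually grown on rigid 2D dishes, and 2 from TRCs (tumor repopulating cells), the spheroids that single B16F1 cells formed in 3D fibrin gels of 90 Pa stiffness and that were isolated on day 5. No genetic change or drug separates the groups. Most seeded cells did not survive in the gel, so that the selection of cells, the soft matrix and growth as spheroids cannot be told apart in this comparison. The labels do not say that libraries with numbers 1 and 3 came from separate cultures, so the p-values measure the spread between these libraries, which may be technical.

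The mevalonate pathway builds isoprenoids from acetyl-CoA. Its early enzymes make farnesyl diphosphate, from which squalene synthase opens the branch to cholesterol, while geranylgeranyl diphosphate synthase opens the branch to lipid anchors of small GTPases such as the Rab proteins. Transcription of most of these enzymes is known to be driven by SREBP2, a membrane-bound factor that is released to the nucleus when sterols in the endoplasmic reticulum are low.

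Depth was between 35948295 and 43511554 counts on genes per library. Values are CPM, the counts of a gene relative to the total count of its library, scaled with TMM factors from 0.957 to 1.04, and the lowest count of any member in any library was 718, for which counting error alone is 3.73%. All 7 melanocyte lineage markers examined, *Pmel*, *Dct* and *Tyrp1* among them, were detected in both groups, with summed levels from 15712 to 18915 CPM in the controls and 23969 to 26669 CPM in TRCs. Of these markers, *Dct* rose, and the others did not pass the test. All 3 keratinocyte markers and 5 of 6 leukocyte markers, *Ptprc* among them, had 0 counts in every library. The other leukocyte marker, *Cd68*, was at 4.12 and 1.76 CPM in control replicates 1 and 3. In TRC replicates 1 and 3 it was at 1.59 and 1.85 CPM, and it did not pass the test. Of 4 endothelial markers, *Kdr* and *Cdh5* were the 2 at 0, while *Pecam1* had 1 to 6 counts per library and *Tek* 0 to 4. The summed level of 6 fibroblast markers was 9.83 to 11.4 CPM in the controls and 3.12 to 5.80 CPM in TRCs. Of these, *Col1a2*, a collagen gene, fell from 6.70 and 7.79 CPM in control replicates 1 and 3 to 1.52 and 1.01 CPM in TRC replicates 1 and 3 (FDR = 4.15e-06), and the others were not called or were too low to be tested. Since the libraries are from bulk RNA, fewer cells that express a gene and less RNA per cell cannot be told apart.

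In TRCs, 4 of the 9 enzymes were upregulated and 0 were downregulated at FDR under 0.05 (edgeR's exact test, with Benjamini-Hochberg adjustment over all genes tested). The 4 were *Hmgcs1*, *Mvd*, *Fdps* and *Fdft1*, with fold changes from 1.87 to 3.07. Of all genes tested, 8.81% were called higher and 7.05% lower in TRCs, or 15.9% in either direction. At an unadjusted p under 0.05, 6 of the 9 were higher, the other two being *Pmvk* and *Idi1*, against 14.8% of all genes tested. The median log2 fold change of the 9 enzymes was 0.71, compared with 0.0034 over all genes tested. The log2 fold change was positive for 8 enzymes, against 50.3% of all genes tested. For 7 enzymes the lower TRC library exceeded the higher control library, against 30.2% of all genes tested, and for *Ggps1* the reverse held, against 30.4%. The summed level of the 9 enzymes was 464 and 742 CPM in control replicates 1 and 3 against 1298 and 1292 CPM in TRC replicates 1 and 3, so the TRC libraries lay closer to each other than the control libraries did.

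**Figure D1:**
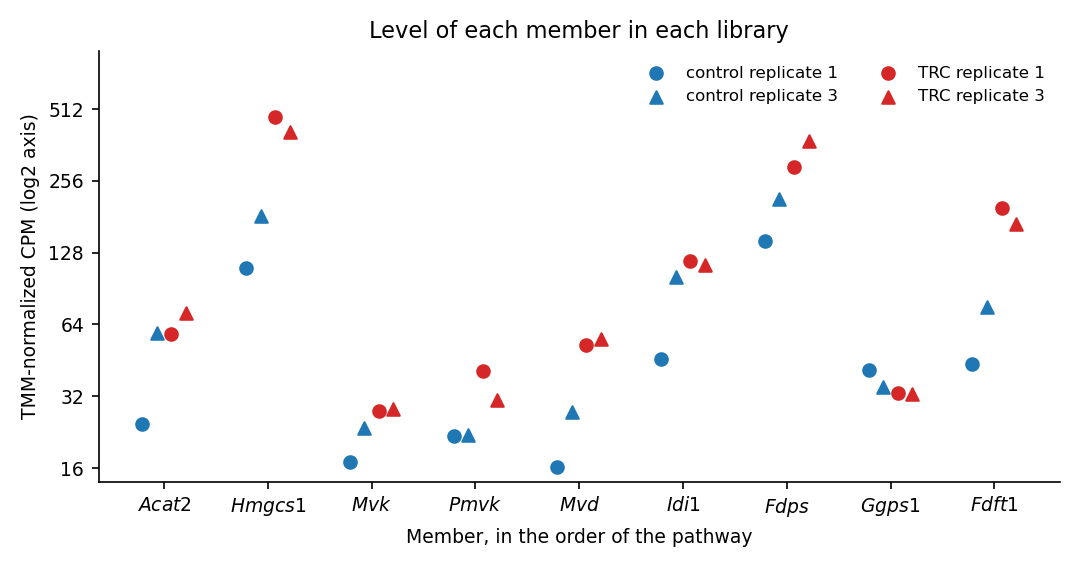
TMM-normalized CPM (log2 axis) of each of the 9 enzymes, in the order of the pathway, with 1 point per library (control cells in blue, TRCs in red, circles for replicate 1, triangles for replicate 3). The red points lie above the blue points for 7 enzymes, the groups overlap for *Acat2*, and *Ggps1* has both red points lowest.

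The pathway opens with *Acat2* (ENSMUSG00000023832, minus strand of chromosome 17, 12942890 to 12960747), the cytosolic thiolase that joins a pair of acetyl-CoA molecules into acetoacetyl-CoA. It was measured at 24.5 and 59.1 CPM in control replicates 1 and 3 against 58.3 and 71.8 CPM in TRC replicates 1 and 3. The groups overlapped, because control replicate 3 was slightly above TRC replicate 1. The log2 fold change was 0.64 (SE 0.37, FDR = 0.209), so *Acat2* did not pass the test.

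*Hmgcs1* (ENSMUSG00000093930, plus strand of chromosome 13, 119690379 to 119708260) encodes the cytosolic HMG-CoA synthase, which adds a further acetyl-CoA. It rose from 110 and 182 CPM in control replicates 1 and 3 to 476 and 412 CPM in TRC replicates 1 and 3. The lowest TRC library stood 229 CPM above the highest control library. The control mean was 146 ± 51.0 CPM (SD, n = 2) and the TRC mean 444 ± 45.3 CPM (SD, n = 2). The log2 fold change was 1.60 (SE 0.27), with FDR = 6.5e-07.

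The kinases that follow had smaller values. *Mvk* (ENSMUSG00000041939, plus strand of chromosome 5, 114444269 to 114460591), mevalonate kinase, was at 17 and 23.6 CPM in control replicates 1 and 3 and at 27.7 and 28.2 CPM in TRC replicates 1 and 3. Both TRC libraries were above both controls, but the gap was 4.08 CPM and the log2 fold change of 0.46 (SE 0.27, FDR = 0.295) did not pass the test. *Pmvk* (ENSMUSG00000027952, plus strand of chromosome 3, 89454541 to 89469013) encodes phosphomevalonate kinase, which adds the second phosphate. Its controls were nearly equal, at 21.7 and 22.1 CPM, and its TRC libraries were at 40.7 and 30.9 CPM. The log2 fold change was 0.71 (SE 0.25), and the FDR of 0.0503 was just above the threshold. Under 4 of the alternative settings, DESeq2's Wald test among them, *Pmvk* had an FDR from 0.0326 to 0.0494.

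*Mvd* (ENSMUSG00000006517, minus strand of chromosome 8, 122433601 to 122443422) encodes the decarboxylase that makes isopentenyl diphosphate, the building unit of all isoprenoids. It rose from 16.1 and 27.5 CPM in control replicates 1 and 3 to 52.7 and 55.5 CPM in TRC replicates 1 and 3. The TRC libraries lay close together and well above the controls, and the log2 fold change was 1.31 (SE 0.30, FDR = 0.00016). *Idi1* (ENSMUSG00000058258, plus strand of chromosome 13, 8885501 to 8892451), the isomerase that turns isopentenyl into dimethylallyl diphosphate, was at 46.0 and 102 CPM in control replicates 1 and 3 and at 119 and 114 CPM in TRC replicates 1 and 3. Control replicate 3 was much closer to the TRC libraries than to the other control. The log2 fold change of 0.66 (SE 0.34, FDR = 0.15) did not pass the test.

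*Fdps* (ENSMUSG00000059743, minus strand of chromosome 3, 89093588 to 89101959) encodes farnesyl diphosphate synthase, whose product stands at the branch point. It rose from 143 and 215 CPM in control replicates 1 and 3 to 294 and 377 CPM in TRC replicates 1 and 3, with no overlap, and its log2 fold change was 0.91 (SE 0.26, FDR = 0.0077). The call of *Fdps* was the least firm of the 4, since its FDR was 0.0565 in edgeR's quasi-likelihood test, 0.132 without control replicate 1 and 0.173 without TRC replicate 3.

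The enzymes that use farnesyl diphosphate differed from each other. *Fdft1* (ENSMUSG00000021273, minus strand of chromosome 14, 63145150 to 63179578), squalene synthase, commits the pathway to sterols. It rose from 43.8 and 75.6 CPM in control replicates 1 and 3 to 197 and 169 CPM in TRC replicates 1 and 3. The control mean was 59.7 ± 22.5 CPM (SD, n = 2) and the TRC mean 183 ± 19.8 CPM (SD, n = 2), and the log2 fold change of 1.62 (SE 0.29, FDR = 7.52e-07) was the largest of the 9. *Ggps1* (ENSMUSG00000021302, minus strand of chromosome 13, 14050659 to 14063488), geranylgeranyl diphosphate synthase, was at 41.2 and 34.9 CPM in control replicates 1 and 3 and at 32.9 and 32.8 CPM in TRC replicates 1 and 3. It was the only one of the 9 with a negative log2 fold change, −0.21 (SE 0.23, FDR = 0.62), which did not pass the test. Within each library the ratio of *Fdft1* to *Ggps1* CPM, which does not depend on the scaling of the library, was 1.06 and 2.17 in the control libraries, replicates 1 and 3 in turn, against 6.01 and 5.17 in the TRC libraries. The ratio of *Hmgcs1* to *Mvk* CPM was likewise higher in TRCs, at 17.2 and 14.6 in replicates 1 and 3, than in the controls, at 6.48 and 7.71. In both pairs the first enzyme rose and the second did not pass the test, so these gaps follow from how the pairs were chosen. For *Fdps* over *Ggps1* the ratio was 3.48 and 6.16 (controls) against 8.94 and 11.5 (TRCs), each in replicate order. For *Fdft1* over *Fdps* it was 0.305 and 0.352 (controls) against 0.672 and 0.449 (TRCs). With 2 libraries per group, an exact permutation test of such a ratio cannot give a two-sided p below 0.333.

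RefSeq promoters (build GRCm38.p6, from 250 bases before to 50 bases after the start) were found for 7 of the 9 enzymes, in 8 windows. They were searched on both strands for TCACNCCAC, the core of the sterol regulatory element that SREBPs bind, for the longer element of the LDL receptor gene, which contains that core, for the NF-Y box CCAAT and for the GC box GGGCGG. The core was found in 1 of the 8 windows, that of *Hmgcs1*, at 137 bases before the start, and in 1.24% of all 32851 promoter windows. The longer element was found in 0 of the 8 windows and in 0.0913% of all. CCAAT was found in 6 of the 8 windows and in 37.4% of all, and GGGCGG in 5 of the 8 and in 35.7% of all. No match says only that these letters are not in the window. The promoters of *Hmgcs1* and *Mvd*, which rose, and of *Ggps1*, which did not pass the test, are printed to show how the motifs are placed, with motif letters on either strand in capitals. The *Hmgcs1* window lies on the plus strand at chr13:119690101-119690400, the *Mvd* window on the minus strand at chr8:122443373-122443672 and the *Ggps1* window on the minus strand at chr13:14063439-14063738.
Hmgcs1: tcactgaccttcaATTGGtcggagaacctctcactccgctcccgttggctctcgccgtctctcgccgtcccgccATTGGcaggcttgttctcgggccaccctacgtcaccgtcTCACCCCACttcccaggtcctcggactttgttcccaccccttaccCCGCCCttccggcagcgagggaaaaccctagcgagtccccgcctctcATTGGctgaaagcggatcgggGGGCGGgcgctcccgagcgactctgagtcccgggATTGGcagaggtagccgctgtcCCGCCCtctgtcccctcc
Mvd: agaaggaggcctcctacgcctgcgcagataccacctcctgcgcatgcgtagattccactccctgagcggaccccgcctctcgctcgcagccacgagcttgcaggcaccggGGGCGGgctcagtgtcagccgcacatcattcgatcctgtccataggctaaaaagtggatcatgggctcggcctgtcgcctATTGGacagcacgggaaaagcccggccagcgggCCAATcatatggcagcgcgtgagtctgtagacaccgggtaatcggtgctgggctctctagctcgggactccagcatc
Ggps1: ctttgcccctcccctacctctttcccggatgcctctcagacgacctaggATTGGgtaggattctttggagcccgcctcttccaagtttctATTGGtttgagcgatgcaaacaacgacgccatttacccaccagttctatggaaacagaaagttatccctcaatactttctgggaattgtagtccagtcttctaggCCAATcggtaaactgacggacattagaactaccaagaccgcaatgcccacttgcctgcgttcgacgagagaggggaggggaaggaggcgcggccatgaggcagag
In the *Hmgcs1* window the core stands as TCACCCCAC, with 4 CCAAT boxes and 3 GC boxes around it. The *Mvd* window holds 2 CCAAT boxes and 1 GC box, and the *Ggps1* window 3 CCAAT boxes and 0 GC boxes.

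The comparison of TRCs with each control library separately showed that the control libraries differed in this pathway. Control replicate 3 was higher than control replicate 1 for 8 of the 9 enzymes, against 50.4% of all genes tested, and the exception was *Ggps1*. The ratio of the controls was 2.41 for *Acat2* and 2.21 for *Idi1*. These were the 2 enzymes more than 2-fold higher in control replicate 3 than in control replicate 1. Of all genes tested, 0.549% were that much higher, and genes that were 2-fold lower are not counted in this share. It was 1.65 for *Hmgcs1*, 1.70 for *Mvd*, 1.73 for *Fdft1* and 1.5 for *Fdps*, and 1.02 for *Pmvk*. The TRC libraries showed no such order, with replicate 3 higher for 4 enzymes, against 50.1% of all genes tested, and lower for 5, and ratios from 0.759 for *Pmvk* to 1.28 for *Fdps*.

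Relative to control replicate 1, the log2 ratio of CPM plus 0.5 was above 1 for 6 enzymes in both TRC libraries, *Acat2*, *Hmgcs1*, *Mvd*, *Idi1*, *Fdps* and *Fdft1*, compared with 5.89% of all genes tested for TRC replicate 1 and 5.43% for TRC replicate 3. Relative to control replicate 3, it was above 1 for 2 enzymes in TRC replicate 1, *Hmgcs1* and *Fdft1*, compared with 10.4% of all genes, and for 3 in TRC replicate 3, *Mvd* being the further one, compared with 9.51%. By pathway step, the mean log2 ratio of the TRC libraries to control replicate 1 was 1.38 for *Acat2*, 2.0 for *Hmgcs1*, 0.70 for *Mvk*, 0.69 for *Pmvk* and 1.71 for *Mvd*. It was 1.33 for *Idi1*, 1.21 for *Fdps*, −0.32 for *Ggps1* and 2.05 for *Fdft1*. To control replicate 3 the same ratios were 0.13 for *Acat2*, 1.28 for *Hmgcs1*, 0.24 for *Mvk*, 0.67 for *Pmvk* and 0.96 for *Mvd*. For the later steps they were 0.20 for *Idi1*, 0.63 for *Fdps*, −0.088 for *Ggps1* and 1.27 for *Fdft1*. *Hmgcs1* and *Fdft1* had the highest ratios against either control, while those of *Acat2* and *Idi1* were above 1 against control replicate 1 and at most 0.20 against control replicate 3.

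**Figure D2:**
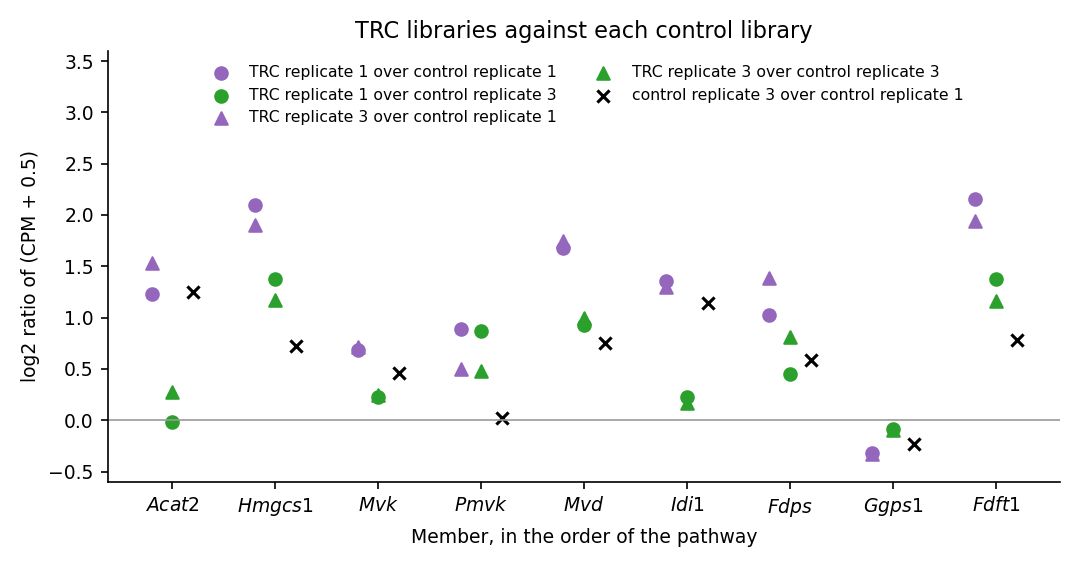
Log2 ratio of CPM plus 0.5 of each TRC library to control replicate 1 (purple) and to control replicate 3 (green) for the 9 enzymes in pathway order, with the ratio of control replicate 3 to control replicate 1 as black crosses. The crosses stand at 1.25 for *Acat2* and 1.14 for *Idi1*, above the green points of the same enzymes.

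The distance between the group means, on the log2 scale of CPM plus 0.5, was 2.27 times the distance between the control libraries for *Hmgcs1*, 2.12 times for *Fdft1*, 1.79 times for *Mvd* and 1.58 times for *Fdps*. It was 1.01 times for *Mvk*, and smaller than the distance between the controls for *Acat2*, *Idi1* and *Ggps1*. In *Pmvk* it was 28.1 times, since its controls were nearly equal. When control replicate 3 was left out, the test called 6 enzymes, *Acat2* with FDR = 0.000162 and *Idi1* with FDR = 0.000102 joining the 4, while 4.35% of all genes were called higher. When control replicate 1 was left out, it called *Hmgcs1*, *Mvd* and *Fdft1*, and 9.39% of all genes were called higher. Leaving out TRC replicate 1 kept the 4 calls, with 4.39% of all genes called higher, and leaving out TRC replicate 3 removed that of *Fdps*, with 4.37%. With all libraries, edgeR's quasi-likelihood test called 3 enzymes and 4.94% of all genes higher, the same test with a replicate block 4 and 4.15%, and DESeq2's Wald test 5 and 9.49%. The log2 fold change of *Acat2* was 1.41 without control replicate 3 and 0.14 without control replicate 1, and that of *Idi1* was 1.34 and 0.20. In fits without a library the lone library is assumed to vary like the other group.

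**Figure D3:**
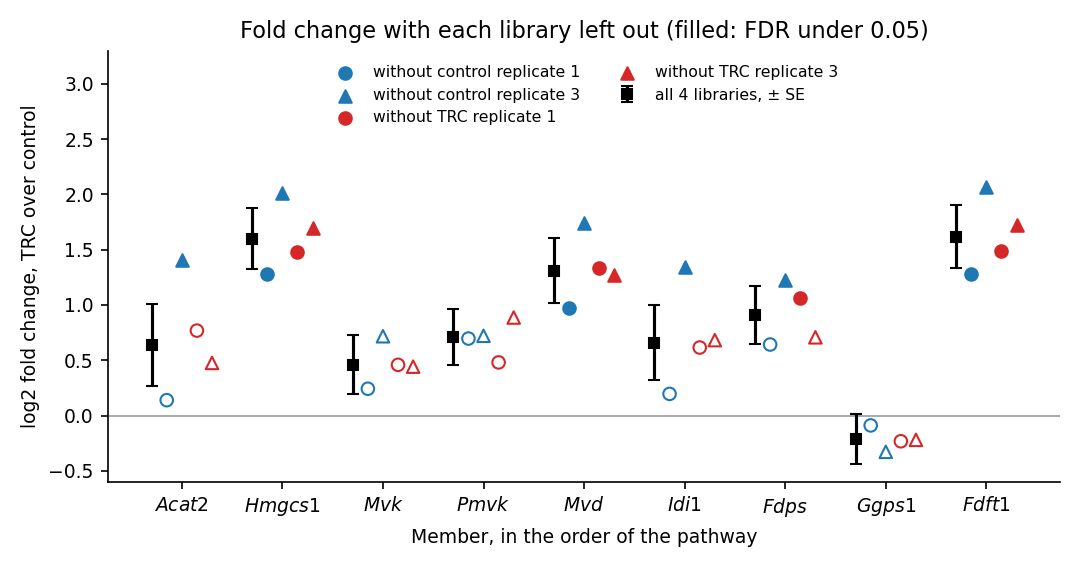
Log2 fold change of TRCs over control cells for the 9 enzymes with all 4 libraries (black squares, bars for the SE) and with each library left out in turn (coloured points, filled where FDR was under 0.05). *Hmgcs1*, *Mvd* and *Fdft1* are filled in all 4 of these fits, and *Mvk*, *Pmvk* and *Ggps1* in 0.

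Levels were compared between enzymes per kilobase of exon, as RPKM. In the controls *Fdps* was highest, with 42.6 ± 12 RPKM (SD, n = 2), followed by *Hmgcs1* with 31.8 ± 11.1 and *Idi1* with 21 ± 11.2, and *Mvk* was lowest with 7.60 ± 1.75. All 8 pairs of neighbours in this order overlapped when values were compared across the 2 libraries. Within each control library *Fdps*, *Hmgcs1* and *Idi1* were the highest, in that order, and the order changed between the libraries for 5 of the 8 pairs, all of them below *Idi1*. In TRCs *Hmgcs1* was highest, with 96.6 ± 9.85 RPKM (SD, n = 2), followed by *Fdps* with 79.8 ± 14, *Fdft1* with 43.4 ± 4.68, *Idi1* with 33.2 ± 0.957 and *Mvd* with 29.1 ± 1.08. *Acat2* had 25.6 ± 3.75, *Pmvk* 20.9 ± 4.05, *Mvk* 10.5 ± 0.127 and *Ggps1* 6.95 ± 0.0151. Here 2 of the 8 neighbour pairs overlapped, *Hmgcs1* with *Fdps* and *Acat2* with *Pmvk*, and the order within a library changed for the same pairs.

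Reads that fit more than 1 place were not assigned to a gene, and their share of alignments was 15.2% and 17.1% for control replicates 1 and 3, against 18.3% and 25.2% for TRC replicates 1 and 3. In the GENCODE M21 transcripts, 0% of the 101-base windows of *Mvk*, *Pmvk* and *Mvd* occur in another gene. The share was 28.7% for *Acat2*, with windows shared with its neighbour *Acat3*, which had 4 to 12 counts per library. It was 21.8% for *Idi1*, mostly shared with *Gm13502*, and 21.3% for *Fdps*, mostly shared with the overlapping model *Gm43738*, which is not in the count files. The levels of *Acat2* and *Idi1* are therefore uncertain by the reads that could not be placed, and the part of such reads in their results was not tested. *Fdft1* shares 774 exon bases, 18.3% of its exons, with *Ctsb* on the opposite strand, and *Ggps1* shares 257, 5.44%, with *Arid4b*. Whether the counting used strand is not given in the sources used here, and if it did not, reads in these stretches would fall in neither gene of a pair.

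The other genes of the pathway were taken from lists chosen by function. Of 3 genes that supply cytosolic acetyl-CoA, 2 rose and 0 fell, against 8.81% of all genes tested called higher and 7.05% lower. *Slc25a1*, the mitochondrial citrate carrier, rose from 58.1 and 58.3 CPM in control replicates 1 and 3 to 134 and 148 CPM in TRC replicates 1 and 3 (log2 fold change 1.28, FDR = 8.88e-07). *Acss2*, which makes acetyl-CoA from acetate, had a log2 fold change of 1.30 (FDR = 7.11e-05), and *Acly*, which splits citrate, had 0.43 (FDR = 0.328), with overlapping groups. Without control replicate 3 *Acly* was called, with 0.91 (FDR = 0.0356). Of 12 late sterol enzymes, which carry squalene to cholesterol, 7 rose and 0 fell, against the same shares of all genes. Their median log2 fold change was 1.02, and it was negative for 2 of the 12, neither of them called. Those with the smallest FDR were *Sqle*, squalene epoxidase, with a log2 fold change of 1.36 (FDR = 2.56e-06), *Msmo1*, a sterol methyl oxidase, with 1.32 (FDR = 5.25e-06), and *Tm7sf2*, a sterol reductase, with 1.94 (FDR = 3.27e-05). The level of *Tm7sf2* was low, at 5.78 and 3.68 CPM in control replicates 1 and 3 and 20.3 and 16.1 CPM in TRC replicates 1 and 3.

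Of 17 enzymes of polyprenyl synthesis and protein prenylation, which use isoprenoids outside the sterol branch, 0 rose and 1 fell. Of all genes tested, 8.81% were called higher and 7.05% lower. The share that fell was near that of all genes, and among 17 genes a share of 8.81% is few, so the 0 is not read as a difference. A negative log2 fold change was found for 12 of the 17 enzymes, against 49.7% of all genes tested, and the median was −0.21. *Pdss1*, which elongates the side chain of coenzyme Q, fell from 15.1 and 16.3 CPM in control replicates 1 and 3 to 5.80 and 7.57 CPM in TRC replicates 1 and 3 (log2 fold change −1.23, FDR = 0.00862). With single libraries left out, *Pdss1* had an FDR of 0.0739 without control replicate 3, 0.197 without TRC replicate 1 and 0.0589 without TRC replicate 3. *Pdss2*, its partner subunit, had a log2 fold change of −0.66 (FDR = 0.216), and *Rabggtb*, a subunit of the enzyme that prenylates Rab proteins, −0.40 (FDR = 0.259). *Ggps1*, with −0.21, thus stood at the median of this list, but the difference between the lists was not tested.

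Of 18 genes of SREBP control and sterol transport, 16 were tested, with a median log2 fold change of 0.63. Of the 16, 6 rose and 0 fell, against 8.81% of all genes tested called higher and 7.05% lower. *Insig1*, which retains SREBPs in the endoplasmic reticulum and is itself an SREBP target, rose from 102 and 226 CPM in control replicates 1 and 3 to 400 and 452 CPM in TRC replicates 1 and 3 (log2 fold change 1.38, FDR = 0.000707). Its log2 fold change was 2.06 without control replicate 3 and 0.91 without control replicate 1, with the call kept in both fits. *Stard4*, a sterol carrier, had a log2 fold change of 1.36 (FDR = 0.000275) and *Insig2* 1.17 (FDR = 0.000484). *Srebf2*, the gene of SREBP2, which was singled out after its values were seen, rose from 154 and 226 CPM to 312 and 423 CPM in the same order (log2 fold change 0.95, FDR = 0.00531). The call of *Srebf2* was lost without control replicate 1 (FDR = 0.106), without TRC replicate 3 (FDR = 0.161) and in the quasi-likelihood test (FDR = 0.0518), and that of *Insig2* without control replicate 3 (FDR = 0.0511) and without TRC replicate 3 (FDR = 0.0544). Of 3 mitochondrial counterparts and paralogs, *Acat1* had a log2 fold change of −0.082 (FDR = 0.862), and *Acat3* and *Idi2* were too low to be tested. *Acat1* encodes the mitochondrial thiolase.

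**Figure D4:**
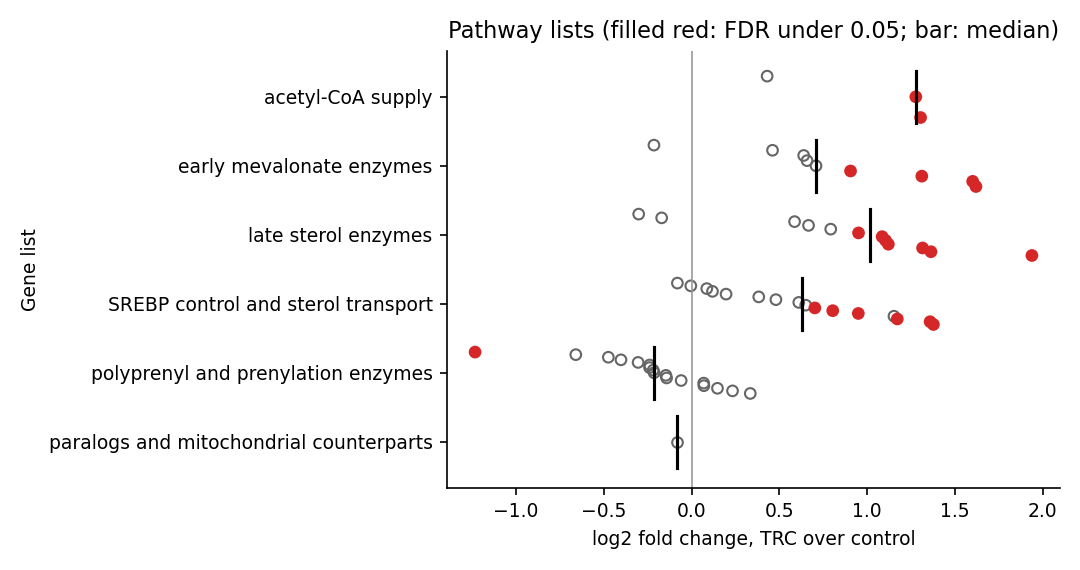
Log2 fold change of TRCs over control cells for each gene tested in the 9 early enzymes and 5 other lists, 1 point per gene, filled red where FDR was under 0.05, with black bars for the median of each list. The medians stand at 0.71 for the early enzymes, 1.02 for the late sterol enzymes and −0.21 for the polyprenyl and prenylation enzymes.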

How the data were processed

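RNA-seq libraries of 2 parental B16F1 control samples and 2 TRC samples were analysed. The authors deposited raw counts for Ensembl genes, made from stranded single-end reads trimmed with Trimmomatic 0.35, aligned to GRCm38 with TopHat2 2.1.0 and counted with htseq-count. Samples were grouped by their cell type label. Rows of htseq-count totals, which name no gene and held 20.2% to 29.0% of the alignments, were taken out. Following the study's methods, genes with at least 1 CPM in at least 2 libraries were kept, counts were scaled by TMM, and the exact test was run on tagwise dispersions with edgeR 4.0.16 (R 4.3.3, prior count 0.125). Genes with a Benjamini-Hochberg FDR under 0.05 over all genes tested were called. Standard errors came from DESeq2 1.42.0. Symbols were found for 37607 identifiers, and positions and exon lengths came from GENCODE M21 on GRCm38. The tests were checked on simulated counts in which 200 genes were changed. Where the simulated log2 change was 1, edgeR's exact test recovered 74 of them, with 7 false calls. Where it was 1.5, 184 were recovered, with 21 false calls. Every simulated gene had the same dispersion, the common one of the data, so enzymes whose controls differed more, such as *Acat2* and *Idi1*, are not represented. Changes below 1 were not simulated. Since most changes of 1 were missed, smaller ones, such as those of the enzymes that did not pass the test, can be missed too.

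The members and gene lists were chosen with earlier results of these data known. All 9 members were named, with up to 3 genes per list with the smallest FDR. Some genes of the pathway are not reported here and were left out of the lists. *Srebf2* and *Idi2* were named after their values were seen, and further genes only for the annotation or as markers. Alternatives were other filters, scalings, dispersions and tests, and leaving out each library. The relative error given for the lowest count covers counting error only, and standard errors include the spread between libraries. Plots were drawn with matplotlib 3.10.9.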

Additional observations from a re-analysis of the deposited data

Results flagged for a closer look

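Alignments that fit more than 1 place, which enter no comparison of genes, made up 18.3% of all alignments in TRC replicate 1 and 25.2% in TRC replicate 3, above both control libraries, with 15.2% and 17.1%. With 2 libraries per group the difference was not tested.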

How the results depend on the processing

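All 9 enzymes kept the direction of their log2 fold change under every alternative run. *Hmgcs1*, *Mvd* and *Fdft1* were called under all of them, and *Mvk* and *Ggps1* under 0. The number of enzymes called ranged from 3 to 6 with single libraries left out, and from 3 (quasi-likelihood test, without *Fdps*) to 5 (with *Pmvk*) under the other settings. With single libraries left out, the number of all genes called ranged from 773 to 1932 and that of other pathway genes from 7 to 17, compared with 1822 and 16, and the 7 were found without TRC replicate 3. The quasi-likelihood test called 1054 of all genes. Same-numbered libraries deviated together with r = 0.0267 across genes. So low a value cannot show whether such libraries were prepared together, because an effect on few genes would barely change it. With the replicate block that test called 785 of all genes, 4 of the 9 enzymes and 11 other pathway genes, and *Pdss1* (FDR = 0.0533) and *Insig2* (FDR = 0.0572) were no longer called. The direction reversed for *Acat1*, which was not called, without control replicate 3 or TRC replicate 1, with log2 fold changes from −0.26 to 0.055 over the fits with single libraries left out. The cause of these changes was not tested. No scaling moved the median of all genes by more than 0.1 on the log2 scale.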

Other observations

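*Idi2*, the paralog of *Idi1*, had 1 count in TRC replicate 3 and 0 in the other libraries.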
